A study of Mus musculus with 6 samples.

Results

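The matrix metalloproteinases and their tissue inhibitors were followed in N18-Fms cells, a mouse prostate cancer line made to carry the CSF-1 receptor. The set held 10 genes, Mmp2, Mmp3, Mmp9, Mmp10, Mmp12, Mmp13, Mmp14, Timp1, Timp2 and Timp3, out of 36028 genes with a usable probe. They were found by gene name in the annotation of the arrays, which placed 12 probes on them. The scanning software flagged 8 of the 10 as well above background on both arrays of some group, and these entered the comparison across 24648 genes. The other two, Mmp2 and Mmp9, were well above background on 0 of 6 arrays.

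The study profiled 3 groups of 2 single-color Agilent arrays each. One group was of unstimulated cells and the others of cells kept with 100 ng/mL of recombinant mouse CSF-1. By the labels this was for 24 h in one group and 48 h in the other. Shorter times stand in the methods, and those of the labels were kept. RNA came from 2 independent experiments per the methods. Both times were compared with the same unstimulated group, and unstimulated cells matched to either time are not labelled. CSF-1 and time in culture thus cannot be told apart. All groups, the unstimulated one included, were the N18-CFMS line of the labels, a luciferase-transfected subclone of the clonal TRAMP tumor line C2H, transduced with murine c-fms by retrovirus and sorted for the receptor by flow cytometry. It is therefore 1 subclone that makes its receptor from a vector, and arrays of the subclone without the receptor were not analysed here.

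Matrix metalloproteinases are zinc-dependent proteases that are made as inactive proenzymes and cut collagens, proteoglycans, growth factors and cell surface proteins once their propeptide is removed. The stromelysins Mmp3 and Mmp10 cleave proteoglycans, laminin and fibronectin and can activate other proenzymes. Mmp13 is the main interstitial collagenase of rodents, Mmp12 is the metalloelastase best known from macrophages, Mmp2 and Mmp9 are the gelatinases, and Mmp14 is a membrane-anchored collagenase that activates the Mmp2 proenzyme on the cell surface. TIMPs bind the active site of these enzymes. Timp1 is a secreted, inducible inhibitor, Timp2 both inhibits metalloproteinases and takes part in the activation of Mmp2 by Mmp14, and Timp3 is held in the extracellular matrix and also inhibits ADAM and ADAMTS proteases. Many metalloproteinase promoters carry a site for AP-1, the dimers of Fos and Jun proteins.

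The start regions of the genes differed in sequence. RefSeq windows on mouse build GRCm38.p6, from 250 bases before to 50 after each start, were at hand for 8 of the 10 genes, all but Mmp2 and Mmp9. The AP-1 heptamer TGAGTCA, searched on both strands, occurred in the windows of 4 of them, Mmp3, Mmp10, Mmp12 and Mmp13, and in 5.20% of all 32851 windows in the table. In Mmp12 it lay in the window of 1 of 2 listed starts. The windows of Mmp14, Timp1, Timp2 and Timp3 did not hold these letters. The 100 bases before the start are printed 5′ to 3′ for genes that changed most on stimulation, with the heptamer or its reverse complement TGACTCA in capitals. Mmp1a, an interstitial collagenase gene that lies between Mmp3 and Mmp10, is added for comparison, and Timp1 and Timp3 stand for the changed genes without the heptamer.
Mmp13 (chr9:7272414-7272513, plus strand): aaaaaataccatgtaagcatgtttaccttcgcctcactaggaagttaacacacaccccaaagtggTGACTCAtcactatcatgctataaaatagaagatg
Mmp3 (chr9:7445722-7445821, plus strand): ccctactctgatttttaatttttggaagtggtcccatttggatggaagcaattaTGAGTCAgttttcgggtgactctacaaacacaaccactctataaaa
Mmp10 (chr9:7502242-7502341, plus strand): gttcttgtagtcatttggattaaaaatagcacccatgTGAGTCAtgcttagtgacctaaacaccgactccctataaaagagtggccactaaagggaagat
Mmp1a (chr9:7464041-7464140, plus strand): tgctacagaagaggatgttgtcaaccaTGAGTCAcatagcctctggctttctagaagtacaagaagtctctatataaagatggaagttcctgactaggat
Timp1 (chrX:20870066-20870165, plus strand): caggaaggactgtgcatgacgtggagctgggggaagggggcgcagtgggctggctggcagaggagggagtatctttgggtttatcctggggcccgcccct
Timp3 (chr10:86300312-86300411, plus strand): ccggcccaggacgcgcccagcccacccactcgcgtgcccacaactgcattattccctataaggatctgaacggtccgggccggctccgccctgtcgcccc

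In these windows the heptamer began 35 bases before the start of Mmp13, 46 before Mmp3, 63 before Mmp10 and 73 before Mmp1a. All 4 also held the TATA letters TATAAA, with the first base between 7 and 29 bases before the start, which did not overlap the heptamer. TATAAA was found in 13.6% of all windows. A match is a description of letters and not of a bound factor.

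CSF-1 was followed by higher Mmp10, Mmp13 and Timp1 and lower Timp3 at both times, and by higher Mmp3 at 48 h. Levels are given below as the log2 of the processed signal minus the 75th percentile of the same array, so that a value of 0 equals that percentile, and they can be compared between arrays for 1 probe but not between probes. Changes are log2 fold changes with the standard error (SE) of the fit, and a gene was called at an adjusted p under 0.05 (limma, 2-sided, Benjamini-Hochberg over the 24648 genes tested). At 24 h, 4 of the 8 tested genes were called, 3 higher and 1 lower, against 14.0% of all genes tested (8.02% higher and 5.99% lower). At 48 h, 5 of 8 were called, 4 higher and 1 lower, against 14.0% of all genes (6.58% higher and 7.38% lower). The counts were also 4 and 5 at the study's thresholds, an unadjusted p under 0.05 and a 2-fold change, which 7.68% and 6.48% of all genes passed. Called at both times were 3 genes that were higher and 1 that was lower, against 4.91% and 4.04% of all genes. These 2 comparisons share the unstimulated arrays. Mmp13 passed the filter on dim probes through the stimulated arrays, where it was high. Among the 6 genes well above background on all 6 arrays, 3 were called at 24 h and 4 at 48 h. The shares above are over all 24648 genes tested, and no share under this stricter filter was computed. The median change of the 8 genes was 0.81 at 24 h and 0.93 at 48 h, beside 0.037 and -0.044 over all genes tested.

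**Figure D1:**
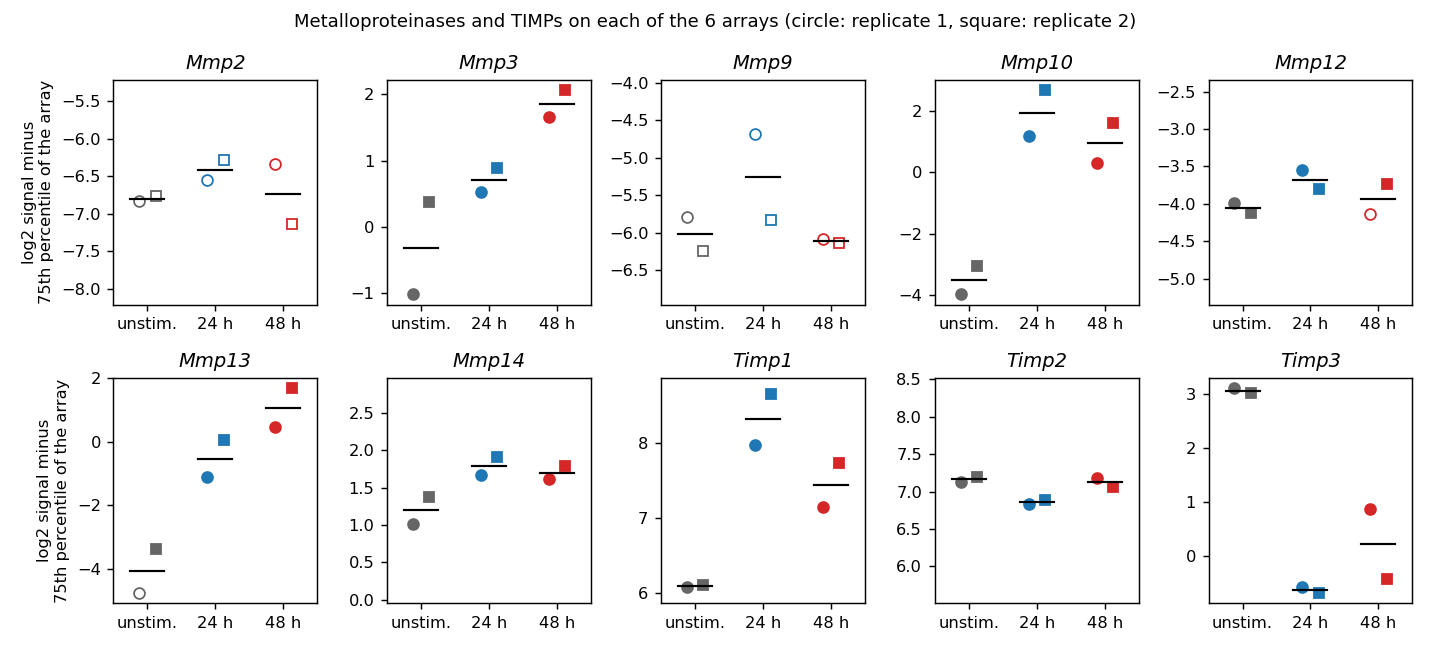
Log2 signal relative to the 75th percentile on that array (vertical axis, its range differs between panels) for the 10 genes in unstimulated cells and at either time of CSF-1 stimulation. Circles are replicate 1, squares replicate 2, open symbols arrays on which the probe was not well above background, and lines group means (n = 2). The groups of Mmp10, Mmp13, Timp1 and Timp3 lie apart from the unstimulated arrays, and all Mmp2 and Mmp9 symbols are open.

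Among the stromelysins, Mmp10 (NM_019471, probe at chr9:7510011-7510070 of mm9, plus strand) had the largest fitted change of the 8 genes at 24 h. It read -3.99 and -3.05 in unstimulated cells, 1.18 and 2.69 at 24 h, and 0.30 and 1.60 at 48 h. All 6 arrays were well above background, and all 4 stimulated arrays lay above both unstimulated ones. Mmp10 rose by 5.46 at 24 h (SE 0.68, 95% confidence interval 3.75 to 7.17, adjusted p = 0.0101) and by 4.47 at 48 h (2.76 to 6.18, adjusted p = 0.0176), which is 43.9-fold and 22.1-fold. After normexp background correction and quantile normalization these changes were lower, at 4.09 and 3.15. The size of the fold change of Mmp10 thus depended on the background correction. Without the second 24 h array the 24 h change was 4.70 (adjusted p = 0.0666) and without the first it was 6.21. At 48 h it was 3.81 (0.0741) without the second 48 h array and 5.12 (0.0704) without the first.

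Mmp3 (NM_010809, probe at chr9:7455751-7455810), the other stromelysin gene, was well above background on all 6 arrays before and after stimulation. Its levels were -1.01 and 0.38 in unstimulated cells, 0.53 and 0.90 at 24 h, and 1.66 and 2.07 at 48 h. The unstimulated arrays lay further apart than those of either stimulated group, yet both were below all 4 stimulated arrays. Mmp3 rose at 48 h by 2.18 (SE 0.47, interval 1.01 to 3.35, adjusted p = 0.0395), or 4.53-fold. At 24 h its change of 1.03 had an interval from -0.14 to 2.20 and did not pass the threshold (adjusted p = 0.208). With any 1 of the 6 arrays left out, the 48 h change of Mmp3 lay between 1.48, without the first unstimulated array, and 2.88, without the other one, and its adjusted p was up to 0.156.

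Mmp13 (NM_008607, probe at chr9:7282762-7282821), the collagenase gene, was near background in unstimulated cells. It read -4.74 on the first unstimulated array, where it was not well above background, and -3.36 on the other. At 24 h the levels were -1.12 and 0.05, and at 48 h they were 0.46 and 1.68, so no 2 groups overlapped. Mmp13 rose by 3.52 at 24 h (SE 0.67, interval 1.82 to 5.21, adjusted p = 0.0304), 11.4-fold, and by 5.12 at 48 h (interval 3.43 to 6.82, adjusted p = 0.0121), 34.8-fold. Since 1 of the 2 unstimulated arrays was not well above background, these fold changes are fitted values and not lower limits. The 24 h change was 2.82 without the first unstimulated array, 4.21 without the other one, 4.10 without the first 24 h array and 2.93 without the second, with adjusted p-values of 0.0663 to 0.136. At 48 h the change was 4.43 (0.0673) without the first unstimulated array and 5.82 (0.049) without the other, and 5.73 (0.0615) and 4.51 (0.057) without the first and the second 48 h array. Normexp correction lowered the changes of this dim gene to as low as 2.04 and 3.50.

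Mmp12 (NM_008605), the metalloelastase gene, had a probe at chr9:7352935-7352994 that was close to background in every group. It read -3.98 and -4.12 unstimulated, -3.55 and -3.81 at 24 h, and -4.13 and -3.73 at 48 h, where the first array was not well above background. The groups lay within a narrow range and overlapped at 48 h. Its changes of 0.37 (adjusted p = 0.235) and 0.12 (adjusted p = 0.718) did not pass, with intervals of -0.08 to 0.83 and -0.34 to 0.57. The other Mmp12 probe was well above background on 0 of 6 arrays.

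The gelatinase genes gave no measurable level. The Mmp2 probe (NM_008610, chr8:95376840-95376899) had processed signals between 4.28 and 7.64, below the lowest signal that was well above background on each array, which ranged from 17.8 to 31.1. Mmp9 (NM_013599, chr2:164780620-164780679) was printed in 10 spots per array, and its averaged signal lay between 8.10 and 10.5 on 5 arrays and was 22.4 on the first 24 h array, also not well above background. Their transcripts were not detectable at this sensitivity, and no fold change can be given.

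Mmp14 (NM_008608, probe at chr14:55058775-55058834), the membrane-anchored activator, was detected on all arrays. It read 1.02 and 1.38 unstimulated, 1.67 and 1.90 at 24 h, and 1.61 and 1.78 at 48 h. Both unstimulated arrays lay below all 4 stimulated ones, but the distance was small. Its changes of 0.58 at 24 h (SE 0.17, interval 0.15 to 1.02) and 0.50 at 48 h (interval 0.07 to 0.93) were 1.50-fold and 1.41-fold and had adjusted p-values of 0.0841 and 0.122. With an intensity trend in the prior spread they passed the threshold (0.0303 and 0.0481).

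The TIMP genes moved in different directions. Timp1 (NM_001044384, probe at chrX:20451802-20451861) read 6.07 and 6.10 in unstimulated cells, 7.97 and 8.66 at 24 h, and 7.15 and 7.73 at 48 h. The unstimulated arrays were nearly equal and every stimulated array lay above them. Timp1 rose by 2.23 at 24 h (SE 0.29, interval 1.50 to 2.96, adjusted p = 0.0112), 4.69-fold, and by 1.35 at 48 h (interval 0.62 to 2.09, adjusted p = 0.0398), 2.56-fold. Under median centring the 48 h change of Timp1 was 1.25 and its adjusted p 0.0608.

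Timp3 (NM_011595, probe at chr10:85811696-85811755) was the called gene that was lower. It read 3.10 and 3.01 unstimulated, -0.57 and -0.68 at 24 h, and 0.87 and -0.42 at 48 h. All stimulated arrays lay below the unstimulated ones, and the 48 h arrays lay further apart from each other than the arrays of the other groups did. Timp3 fell by 3.69 at 24 h (SE 0.41, interval -4.72 to -2.65, adjusted p = 0.00793), 12.9-fold, and fell by 2.83 at 48 h (interval -3.86 to -1.80, adjusted p = 0.0156), 7.13-fold. With 1 array left out, the 24 h change lay between -3.74 and -3.63. The 48 h change was then between -3.48, without the first 48 h array, and -2.19, without the second. At both times the call was lost without either unstimulated array or the second 24 h array, except at 48 h without the second unstimulated array, as shown by single fits.

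Timp2 (NM_011594) had a pair of probes, each well above background on all arrays, and these differed in the size of the change. The brighter one, at chr11:118163146-118163205 on the minus strand, read 7.13 and 7.19 unstimulated, 6.84 and 6.89 at 24 h, and 7.18 and 7.07 at 48 h. The 24 h arrays lay below the rest, and the change of -0.30 (SE 0.11, interval -0.57 to -0.02, adjusted p = 0.136) did not pass. It passed with an intensity trend in the prior spread (0.0427), under median centring at -0.58 (0.0463) and with the mean of both probes at -0.49 (0.0425). At 48 h its change was -0.04 (interval -0.31 to 0.24, adjusted p = 0.861). The other probe, whose ends map 6778 bases apart and so span at least 1 intron, read 4.80 and 4.83, then 4.16 and 4.10, then 4.54 and 4.58. Tested among 34814 probes, it fell by 0.68 at 24 h (SE 0.11, adjusted p = 0.0204) and had a change of -0.25 at 48 h (adjusted p = 0.196).

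**Figure D2:**
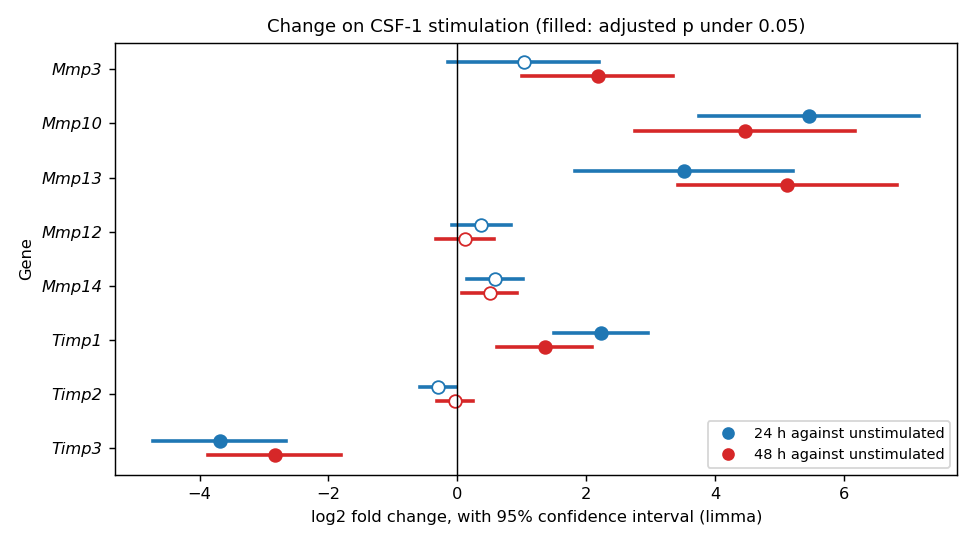
Log2 fold change against unstimulated cells (horizontal axis) of the 8 tested genes (vertical axis) at 24 h (blue) and 48 h (red), with 95% confidence intervals of limma's fit. Filled circles had an adjusted p under 0.05. Mmp10, Mmp13 and Timp1 lie above 0 and Timp3 below 0 at both times.

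No difference between the 2 stimulation times was called for any of the 8 genes. The fitted changes from 24 h to 48 h were -0.99 for Mmp10 (interval -2.70 to 0.72, adjusted p = 0.572), 1.60 for Mmp13 (-0.09 to 3.30, adjusted p = 0.388), 1.15 for Mmp3 (-0.02 to 2.32, adjusted p = 0.376), -0.88 for Timp1 (-1.61 to -0.14, adjusted p = 0.291) and 0.85 for Timp3 (-0.18 to 1.88, adjusted p = 0.438). By limma, 0 of the 8 genes passed after adjustment and 1, Timp1, had an unadjusted p under 0.05, and by the methods' t-test 0 had one. Over all genes tested the shares were 0.00% and 13.6% by limma. A p-value that misses the threshold does not show that the levels were equal, and the intervals allow a change from 24 h to 48 h of up to 3.30 for Mmp13.

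The arrays labelled replicate 1 and replicate 2 also differed in these genes. In each group, the array labelled replicate 2 read higher than that labelled replicate 1 for Mmp3, Mmp10, Mmp13, Mmp14 and Timp1, and lower for Timp3. The first 24 h array lay on another slide than the other 5. Without it, on 1 slide, the 24 h changes were 6.21 for Mmp10 (adjusted p = 0.026), 2.57 for Timp1 (0.0251), -3.74 for Timp3 (0.0436) and 4.10 for Mmp13 (0.0663). The number of called genes at 24 h was 0 without either unstimulated array or the second 24 h array, and at 48 h it was 0 without the first unstimulated array, 2 without the other one or without the second 24 h array, and 1 without either 48 h array. All the called changes had the same sign with each array left out, and 1 of the 3 groups then holds a single array that is assumed to vary like the others. The shares of all genes called in these fits were not computed, so these counts do not set the members apart from other genes.

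**Figure D3:**
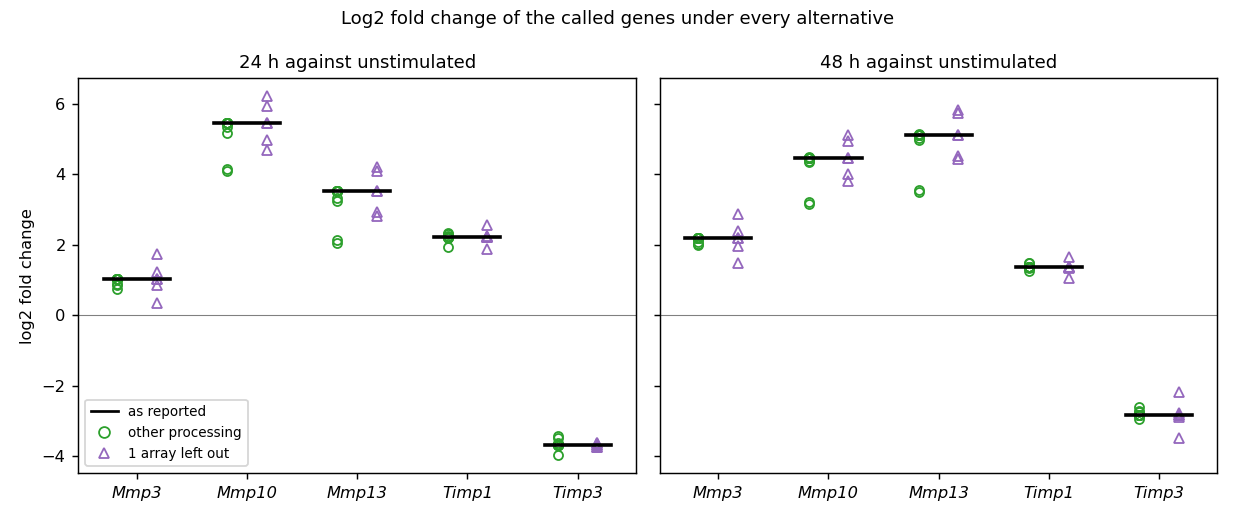
Log2 fold change (vertical axis) of the 5 genes called at either time, at 24 h (left) and 48 h (right). Black lines are the reported values, circles other ways of processing, triangles fits with 1 array left out. All symbols of a gene lie on 1 side of 0, and the circles of Mmp10 and Mmp13 that lie lowest are from normexp background correction.

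Mmp3, Mmp10, Mmp12 and Mmp13 belong to a run of metalloproteinase genes on chromosome 9. By mm9 probe position, 10 metalloproteinase genes lay within 414.9 kb, with 0 probes of other genes between them, in the order Mmp13, Mmp12, Mmp1b, Mmp3, Mmp1a, Mmp10, Mmp8, Mmp27, Mmp20 and Mmp7. Of these, 6 were tested and 2, Mmp3 and Mmp10, were well above background on all arrays. At 24 h 3 genes were called higher and at 48 h 4, against 8.02% and 6.58% of all genes, with Mmp13, Mmp1a and Mmp10 called at both times, against 4.91%. Of these called genes, Mmp1a and Mmp13 passed the filter on dim probes through the stimulated arrays alone, so their calls are not counted as support. Mmp1a read -5.39 and -6.62 in unstimulated cells, not well above background, and averaged -2.81 at 24 h and -2.65 at 48 h. With the unstimulated arrays set to the dimmest signal flagged well above background on them, it was at least 3.78-fold higher at 24 h and 4.22-fold at 48 h. The adjusted p-values of limma, 0.0204 and 0.0191, belong to its fitted changes of 3.20 and 3.36 and do not test these limits. The called genes were not neighbors throughout, since Mmp12 and Mmp1b lie between Mmp13 and Mmp3. Mmp1b, Mmp8 and Mmp20 were well above background on 0 arrays, and Mmp7 on 2. The heptamer TGAGTCA lay in a window of 7 of the 10 genes, among them the 4 called ones, but also Mmp12, Mmp1b and Mmp7, and in 5.95% of the 27025 genes of the table. These genes are related to each other in sequence, so their windows are not independent. Among the 19 probes of these genes and of the TIMPs, Mmp2, Mmp9 and Mmp14, the longest run of bases shared by any 2 probes was 10 of 60.

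**Figure D4:**
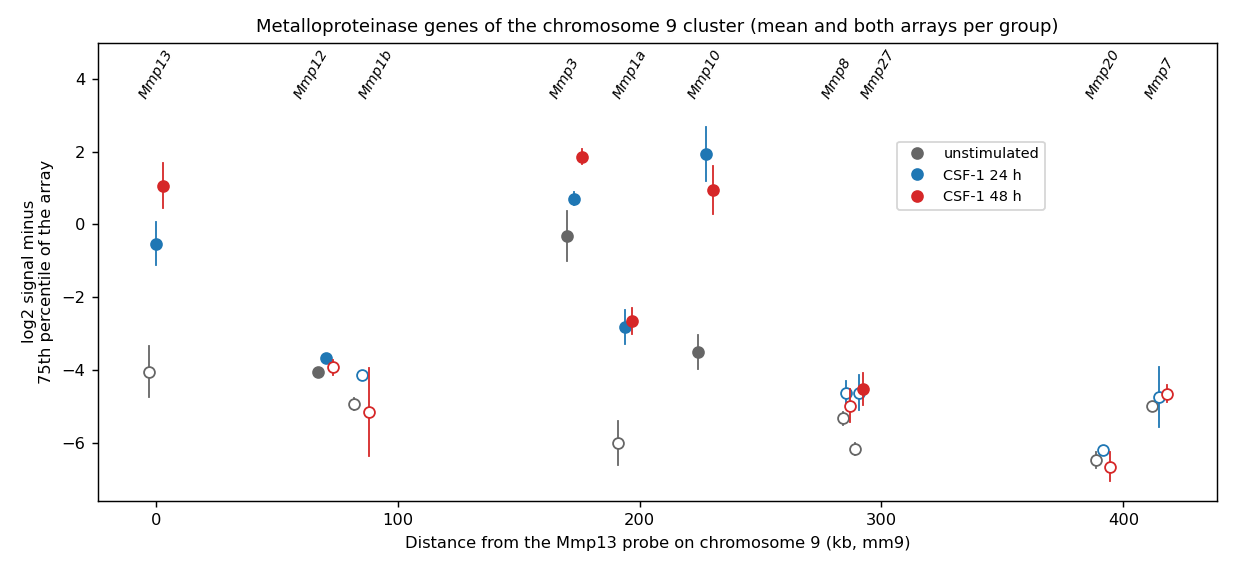
Log2 signal relative to the 75th percentile on that array (vertical axis) of the metalloproteinase genes on chromosome 9, by distance of their probes from that of Mmp13 in kb (horizontal axis, with groups set slightly apart). Circles are group means, lines join the 2 arrays, and open circles mark groups in which an array was not well above background. Mmp13, Mmp1a and Mmp10 were called higher at both times and Mmp3 at 48 h, and levels of different genes are not comparable.

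Other genes of matrix proteolysis were taken from lists of general knowledge, chosen with earlier results of these data known. The counts below describe these lists and are not a test of them. The shares of all genes called were 8.02% higher and 5.99% lower at 24 h and 6.58% higher and 7.38% lower at 48 h. Of 18 further metalloproteinases and inhibitors, 8 were tested and 1, Mmp1a, was called, higher at both times. Of 16 ADAM and ADAMTS proteases, membrane sheddases and proteoglycan-cleaving enzymes, 14 were tested, and 4 were called higher and 1 lower at each time. Adamts4, an aggrecanase, rose by 4.27 at 24 h (adjusted p = 0.00145) and 2.88 at 48 h (0.00315). Adamts7, a protease of cartilage oligomeric matrix protein, rose by 3.14 (0.00248) and 3.03 (0.00209), and Adam19, a sheddase, rose by 2.89 (0.00599) and 2.12 (0.013). Adam8, a sheddase known from leukocytes, rose by 2.52 (0.00145) and 2.63 (0.00127). Adamts5, the other well-known aggrecanase, was the one that was lower, and fell by 1.36 (0.0103) and 2.13 (0.00325).

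Of 9 genes for activators of metalloproteinases, docking proteins and receptors, 4 were called higher and 0 lower at each time, against the same 8.02% and 6.58% of all genes called higher. One of them, Itgb3, passed the filter on dim probes through the stimulated arrays alone, so its call is not counted as support. Plau, the urokinase that starts the plasmin cascade, rose by 2.89 at 24 h (adjusted p = 0.00792) and 1.91 at 48 h (0.0223). Its receptor gene Plaur rose by 1.99 (0.0102) and 1.75 (0.0152). Furin, a convertase that removes the propeptide of Mmp14, rose by 1.35 (0.00938) and 1.21 (0.0128). Itgb3, an integrin chain that pairs with the alpha v chain, was not well above background on either unstimulated array. It was at least 14.6-fold higher at 24 h and at least 6.66-fold higher at 48 h. The adjusted p-values of limma, 0.00663 and 0.0139, belong to its fitted changes of 4.45 and 3.32 and do not test these limits.

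Of 12 transcription factors of the AP-1, Ets and Runx families, all tested, 4 were called higher at 24 h and 3 at 48 h, and 0 lower, against 8.02% and 6.58% of all genes called higher. The AP-1 subunit genes Fos, Junb and Fosb were called at both times. Fos rose by 2.93 (adjusted p = 0.00835) and 2.10 (0.0197), Junb by 2.32 (0.00406) and 1.67 (0.00862), and Fosb by 1.12 (0.0114) and 0.68 (0.0402). Fosl1, named after its values were seen, was called at 24 h, with a rise of 0.66 (0.0406). The median changes at 24 h and 48 h were 0.44 and 0.72 for the further metalloproteinases, 0.40 and 0.25 for the ADAM and ADAMTS list, 0.33 and 0.39 for activators and docking proteins, and 0.18 and 0.0087 for the transcription factors, beside 0.037 and -0.044 over all genes.

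**Figure D5:**
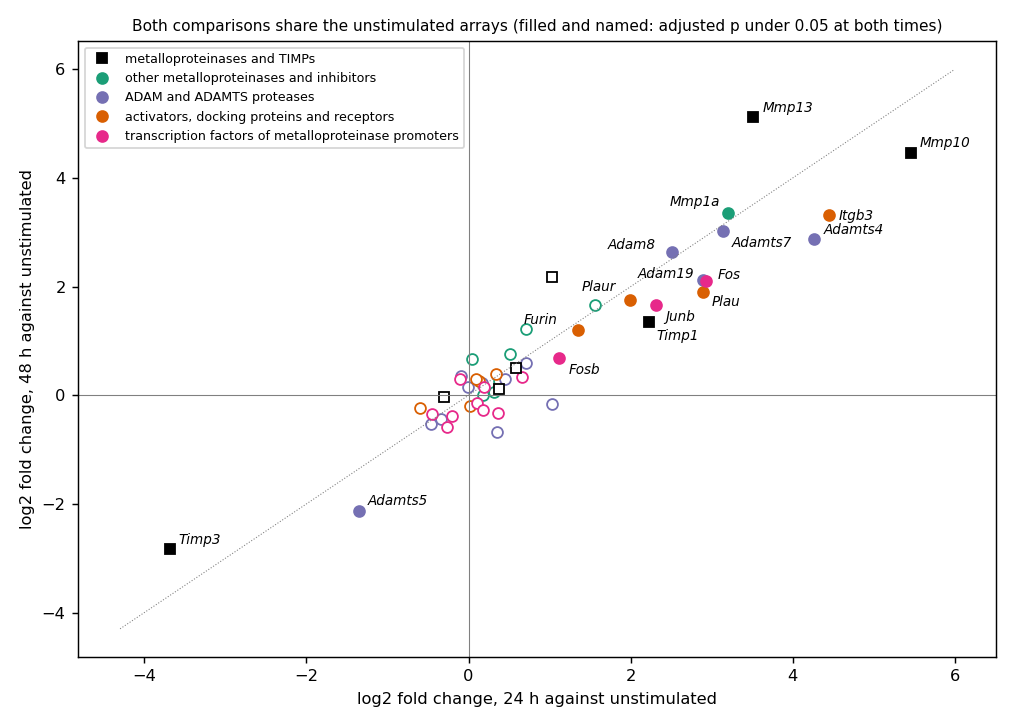
Log2 fold change at 24 h (horizontal axis) and 48 h (vertical axis) against unstimulated cells, for the 8 tested metalloproteinases and TIMPs (squares) and 4 lists of related genes (circles). Filled, named symbols were called at both times, values are fitted also where only a lower limit holds, and the dotted line marks equal change. Both axes use the same unstimulated arrays, and Timp3 and Adamts5 are the named genes below 0.

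The genes whose pattern was most like that of Mmp10 were sought among 12303 named genes well above background on all arrays, by the Euclidean distance of the 6 array values after subtraction of the unstimulated mean. The nearest were Sema7a (a membrane-anchored semaphorin) at 1.41, Il33 (an alarmin of the interleukin-1 family) at 1.46 and Tnfrsf11b (osteoprotegerin, a decoy receptor) at 1.58 log2 units. Their Pearson correlations with Mmp10 over the 6 arrays were 0.987, 0.976 and 0.980, a description over arrays that share the 3 groups.

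Cell type markers moved beside these genes in part, and their part in the results was not tested. The line was described as epithelial. Of the epithelial markers, Krt8 and Krt5 were well above background on 6 arrays, Krt19 on 5, Krt18 on 3, Epcam on 1 and Cdh1 on 0. The summed level of 6 epithelial markers, in units of the 75th percentile signal, was 0.385 to 0.481 unstimulated, 0.603 to 0.637 at 24 h and 0.816 to 0.987 at 48 h, with Krt8 called higher at 48 h and making up 31.5% to 67.9% of the sum. That of 8 fibroblast and stromal markers was 641 to 650, then 427 to 432, then 407 to 413, with Col1a1, Col1a2 and Pdgfrb lower and Dcn higher at both times, Pdgfra higher at 24 h and Lum above background on 0 arrays. Vim, Col1a2 and Col1a1 made up 99.3% to 99.6% of that sum. That of 11 macrophage and leukocyte markers was 78.3 to 78.6, then 75.1 to 77.2, then 59.7 to 70.6, of which Csf1r and Itgam alone made up 85.3% to 92.3%, so these sums mostly follow a few bright probes. In that list 2 of 8 tested genes, Cd53 and Cd14, were called higher at both times, against 4.91% of all genes tested. Cd53 was not well above background on either unstimulated array. It passed the filter on dim probes through the stimulated arrays alone, so its call is not counted as support. Lyz2 was well above background on 0 arrays, and Csf1r, which the vector supplies, had levels of 4.87 to 5.34 on all 6. In whole-culture RNA, a change in the number of cells that make a transcript and a change per cell cannot be told apart.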

How the data were processed

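The members and lists were chosen with earlier results of these data known. The authors labelled RNA with Cyanine 3, hybridized SurePrint G3 arrays and deposited, per the file headers, the Feature Extraction output, of which the processed signal, mean signal and background signal are linear intensities. A table of log2 values was deposited as well, and once each array's constant shift was removed, 99.811% of its differences between arrays lay within 0.05 of those of the log2 signals (44323 probes). The scale is thus log2, while the baseline of each probe stays unknown, and the column medians were 0.0259 and -0.0378 unstimulated, 0.173 and 0.00707 at 24 h, and -0.00936 and -0.0226 at 48 h. Their GeneSpring settings are not given in the sources used here.

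Control spots and spots with an outlier flag were left out, which removed 303 probes. Repeated spots were averaged as log2 values, the 75th percentile of each array was subtracted, and the brightest probe stood for a gene. Of 59305 spots per array, 58.7% to 72.0% were well above background and 0 were saturated. Replicates correlated at 0.9944 to 0.9954 over 29332 probes. The comparison used limma 3.58.1 under R 4.3.3 (lmFit, eBayes, 3 residual and 2.39 prior degrees of freedom). An exact 2-sided test of 2 against 2 arrays cannot give a p under 0.333. On simulated data with 200 of 24648 genes changed by 2 on the log2 scale, limma recovered 75% at 24 h and 73% at 48 h. It also called 4 and 9 unchanged genes. The simulated noise was independent between arrays, and far fewer genes changed than were called in the data, so these rates need not hold for the data. For a lower limit of a fold change, each dim array was set to the higher of its own signal and the dimmest signal called well above background on it. Probe positions are those of the array annotation on mm9 and were not converted. Named are all 10 members, the genes of 4 lists called at both times, and the 3 genes nearest to Mmp10. One epithelial marker is not reported here. Alternatives covered normalization, normexp with an offset of 50, the authors' table, filters on dim probes, the probe rule, the prior, the samples fitted, the replicate number, the methods' t-test and leaving out each array.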

Additional observations from a re-analysis of the deposited data

How the results depend on the processing

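With 2 arrays per group, the calls depended on single arrays more than the changes did. With 1 array left out, 0 to 4 genes were called at 24 h, 0 to 4 at 48 h and 0 to 0 between the times. After Benjamini-Hochberg adjustment the methods' t-test called 0 genes at 24 h and 0 at 48 h, against 4 and 4 unadjusted, and without the filter on dim probes 0 were called at 48 h, with adjusted p-values of 0.0504 for Mmp13 and 0.0606 for Timp3. With the replicate number as a block, 5 genes were called at 24 h, 6 at 48 h and 0 between the times. Mmp14 was the added one at both (adjusted p of limma = 0.0366 and 0.0473). The shares of all genes called under these alternatives were not computed, so these counts do not set the members apart from other genes. The labels do not state that a number marks a shared experiment, and the replicate differences of 2 groups correlated at 0.0941 to 0.199 over genes. The numbers were not used to pair samples, and whether they mark an experiment is not known, which a correlation over all genes cannot decide. In Mmp3, Mmp10, Mmp13, Mmp14, Timp1 and Timp3 the replicates differed in the same direction in each group. That difference stays in the spread of the reported fit, and the share of all genes with such a shift was not computed. The changes whose sign turned had not been called. For Mmp12 the 24 h change was -0.061 after quantile normalization and -0.12 with normexp as well, its 48 h change -0.016 and -0.017, with -0.083 to 0.32 on leaving out single arrays and the lowest without the second 48 h array, and its change from 24 h to 48 h 0.044 and 0.099. For Mmp14 the change from 24 h to 48 h was 0.098 under median centring and -0.20 to 0.032 on leaving out single arrays, the highest without the second 24 h array. For Timp2 the 48 h change was 0.067 and 0.11 after these normalizations and -0.095 to 0.021 on leaving out single arrays, the highest without the second 48 h array. Median centring moved the median over all genes to -0.25 at 24 h and -0.14 at 48 h, where Mmp10, Mmp13, Timp1 and Timp3 kept their signs. For single genes, other processing left 315 changes with the same sign and side of the threshold, 19 no longer passed, 11 newly passed and 9 turned sign. Signal over background limits Mmp2, Mmp9, Mmp12 and unstimulated Mmp13.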
